A study of Mus musculus with 3 samples.

Results

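The genes described here are 40 mouse genes of glucose breakdown, out of 55196 genes measured. They are the isoforms of each glycolytic enzyme, the regulatory enzymes of the PFKFB and PDK families, and the main glucose and lactate transporters. They were chosen by name and function, not by a measured value, and fall into 15 steps. Of these steps, 13 list more than 1 isoform and 2 list 1 gene.

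The samples were 3 separate cultures of Ba/F3, a mouse haematopoietic cell line that depends on interleukin-3 for growth. The labels name no treatment and no genetic change, and all 3 cultures were kept in RPMI medium containing fetal calf serum, penicillin and streptomycin plus recombinant murine IL-3. Polyadenylated RNA was sequenced with a strand-marking kit. There is 1 group and no contrast between conditions, so the comparisons are between isoforms of a step and between cultures of the same line.

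Glycolysis converts glucose to pyruvate in the cytosol and yields ATP and NADH. Pyruvate then either enters mitochondria, where pyruvate dehydrogenase feeds it into the citric acid cycle, or is reduced to lactate and exported. Mammalian genomes hold several isoforms for most steps, and these differ in tissue distribution, kinetics and regulation; growing haematopoietic cells are known for high glucose uptake and lactate release.

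The libraries held 32044889, 33880292 and 37180883 reads in cultures 1, 2 and 3. Levels are given as CPM (reads scaled to a library of 1000000) when cultures are compared, and as TPM (reads per length of the principal transcript, scaled to the same total) when members are compared. Markers, other gene lists and the comparison with all detected genes are given mainly in CPM, which is not corrected for length. A gene was called detected at 1 CPM or more in all 3 cultures. Of 6 haematopoietic markers, 6 were detected, and their summed level was between 2222 and 2271 CPM. Of 7 B lineage markers, 2 were detected, Cd79b at 19.5 CPM and Cd79a at 1.75 CPM on average, and Ebf1 and Igll1 had no read. No marker of liver, testis germ cells, neurons, fibroblasts or epithelium was detected. Of 4 muscle markers only Ckm, muscle creatine kinase, was detected, at 120, 144 and 184 CPM, while Myh1 and Myod1 had no read.

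Every step had at least 1 detected gene, and 27 of the 40 genes (67.5%) were detected. The background for that count is 19.9% of all genes and 45.9% of protein-coding genes. The median level of the 27 detected genes was 482 CPM, and that of all detected genes was 39.7 CPM. Neither these medians nor the count that follows is corrected for length. As many as 8 of the 85 genes that averaged 1000 CPM or more in these cells were members: Slc2a3, Gpi1, Aldoa, Tpi1, Pgk1, Eno1, Pkm and Ldha. Together the 40 genes took 3.22%, 3.27% and 3.31% of the reads of cultures 1, 2 and 3, a mean of 3.27% ± 0.0435 (SD, n = 3). In bulk RNA, fewer cells with a transcript and less RNA per cell cannot be told apart, so a level is an average over the culture.

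The other 13 genes fell below the limit of detection. Slc2a2, Pgk2, Pgam2, Ldhb and Pdk4 had no read in any culture. A count of 0 allows up to 3 reads, which equals 0.0936, 0.0885 and 0.0807 CPM in cultures 1, 2 and 3. Slc2a4, Gapdhs and Pdk2 each had 1 read in all. Hkdc1, Eno2, Pklr, Ldhc and Slc16a3 had reads in every culture but stayed under 1 CPM. These limits cover counting error only, since reads carry no molecular identifiers.

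**Figure D1:**
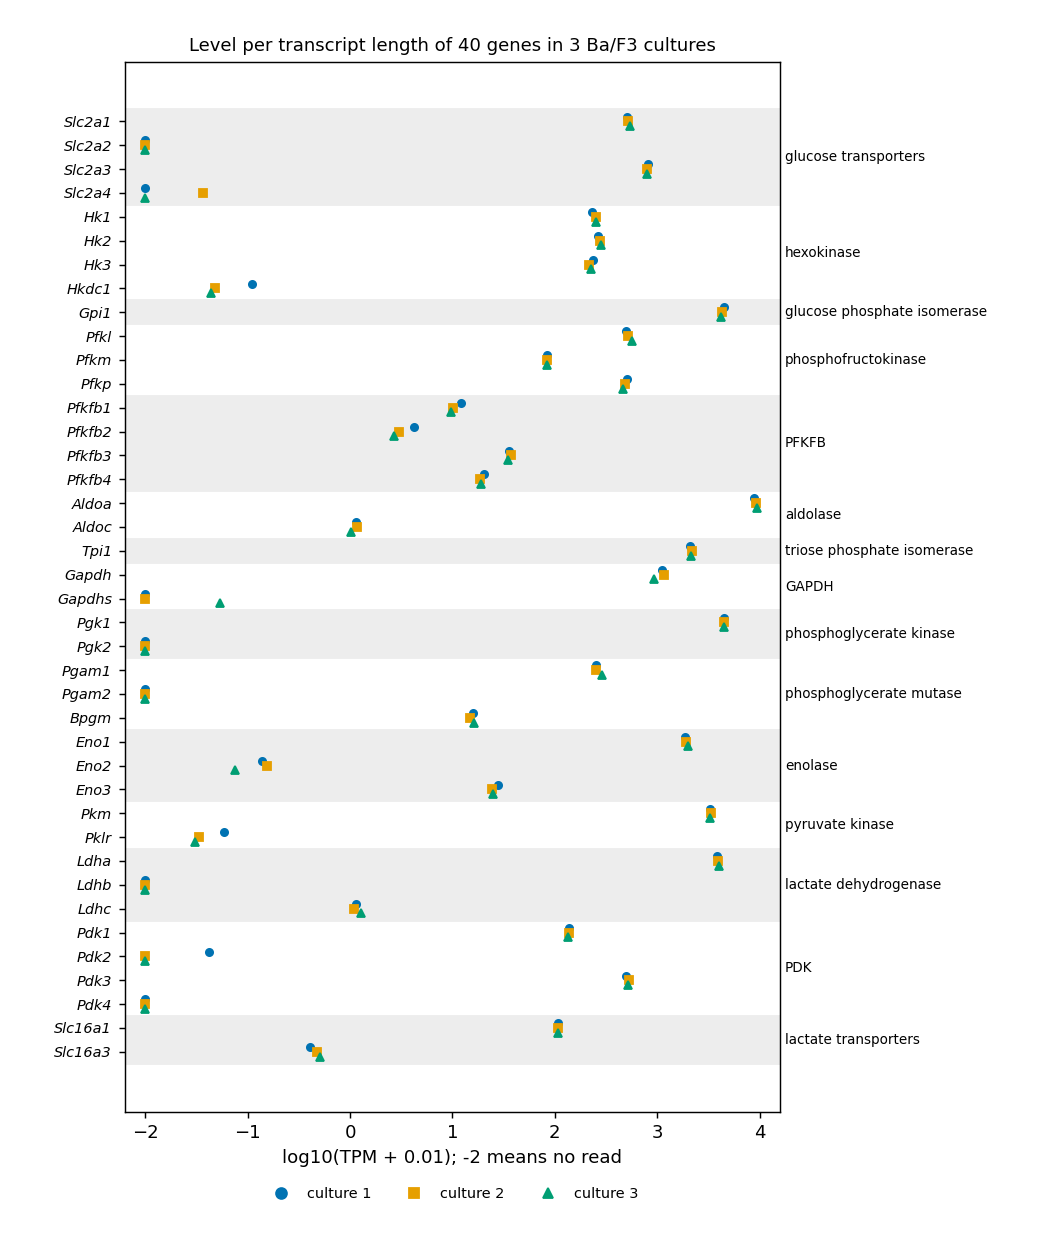
Level of the 40 genes in 3 Ba/F3 cultures, as log10(TPM + 0.01), grouped by step; each symbol is 1 culture and -2 marks a gene without a read. Aldoa lies at the top with 9233 TPM on average, and 5 genes lie at the bottom in every culture.

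Glucose entry was shared by 2 transporters. Slc2a1, the widely expressed transporter GLUT1, had 724, 740 and 781 CPM in cultures 1, 2 and 3. Slc2a3, the high-affinity transporter GLUT3, had 1407, 1392 and 1404 CPM. Per length, Slc2a3 averaged 800 ± 6.29 TPM and Slc2a1 519 ± 16.5 TPM (SD, n = 3 each), and the cultures of the pair did not overlap. The level of Slc2a3 over that of Slc2a1 was 1.60, 1.55 and 1.48, and Slc2a3 held 60.7% ± 0.939 of the step. Which of the pair led depended on the length used: with the summed length of all exons, Slc2a3 held 47.5% and Slc2a1 was higher. Slc2a2, the transporter of liver and pancreatic beta cells, had no read, so Slc2a3 was at least 21146-fold higher per length; this and the other lower bounds set the unread gene at 3 reads in each culture and give the lowest culture. Slc2a4, the insulin-responsive transporter of muscle and fat, had 1 read, in culture 2.

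Hexokinase, which traps glucose as glucose 6-phosphate, was the most evenly divided step per length of the principal transcript. Hk1, the broadly expressed enzyme, had 233, 254 and 251 TPM. Hk2, the inducible enzyme that also binds mitochondria, had 266, 277 and 283 TPM. Hk3, an isoform known from myeloid cells, had 236, 216 and 225 TPM. The values of Hk2 lay above those of the other two in every culture, whereas the ranges of Hk1 and Hk3 overlapped. Hk2 held 36.9%, Hk1 32.9% and Hk3 30.3% of the summed level of 747 ± 12.6 TPM (SD, n = 3). With the mean length of the protein-coding transcripts, Hk2 held 33.0% and Hk1 was higher. The step was less even in other settings: Hk2 held 45.2% with the summed length of all exons and 47.6% without length correction. Hkdc1, a hexokinase-like gene 3.23 kb from Hk1 on chromosome 10, had 5, 2 and 2 reads, an average of 0.0896 CPM beside 418 CPM for Hk1.

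Gpi1, glucose phosphate isomerase, had 5711, 5498 and 5437 CPM and averaged 4350 ± 137 TPM (SD, n = 3). It was the third highest of the 40 genes per length of the principal transcript, and its cultures overlapped those of Pgk1, the next above it.

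Phosphofructokinase, the main control point of the pathway, was divided between the liver-type and platelet-type subunits. Pfkl, the liver type, had 495, 519 and 565 TPM in cultures 1, 2 and 3. Pfkp, the platelet type, had 510, 482 and 460 TPM. The level of Pfkl over that of Pfkp was 0.970 in culture 1, 1.08 in culture 2 and 1.23 in culture 3, so the order of the pair was not the same in the 3 cultures. The summed level of the step stayed at 1095 ± 12.1 TPM (SD, n = 3). Pfkl held 48.1% ± 2.79 and Pfkp 44.2% ± 2.64 of it. Pfkp was the higher of the pair on average without length correction, where Pfkl held 46.6%, with the mean length of protein-coding transcripts (44.6%), and with the number of windows found in no other gene (44.1%). Pfkm, the muscle-type subunit, was stable at 108, 107 and 107 CPM and held 7.70%.

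The PFKFB enzymes make and remove fructose 2,6-bisphosphate, an activator of phosphofructokinase, and were low relative to the enzymes of the main pathway. Pfkfb3, an isoform with high kinase activity, had 72.5, 75.9 and 73.0 CPM and 36.0 ± 1.08 TPM (SD, n = 3). Pfkfb4 had 31.4, 28.5 and 29.8 CPM. Pfkfb1, known as the liver and muscle isoform, had 9.30, 7.67 and 7.58 CPM, and Pfkfb2, known from heart, had 8.18, 5.90 and 5.30 CPM. Pfkfb3 held 52.0% of the summed level, Pfkfb4 27.9%, Pfkfb1 15.3% and Pfkfb2 4.74%, an order that was the same in every culture.

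**Figure D2:**
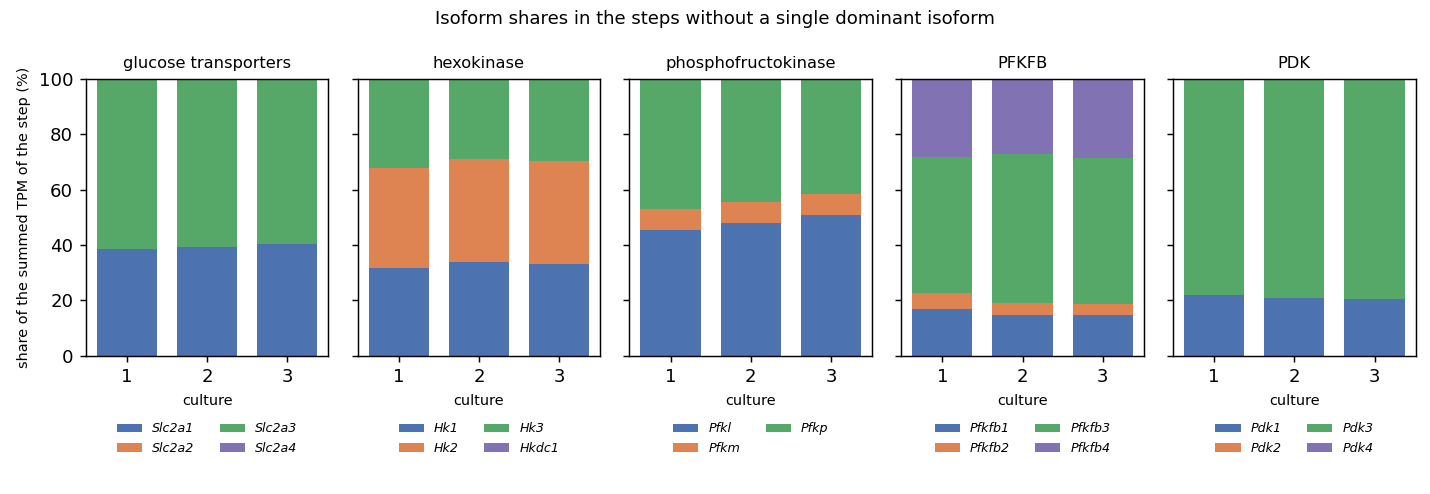
Share of each isoform in the summed TPM of its step (%), for the 5 steps whose leading isoform held under 90%; each bar is 1 culture. Pfkl and Pfkp exchange order between culture 1 and the other cultures, and in the other steps the leading isoform is the same in all 3.

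In 8 of the 13 steps with more than 1 listed isoform, the leading isoform held at least 90% of the level per length, a limit set after the values were seen. In 5 steps only 1 isoform was detected.

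Aldolase splits fructose 1,6-bisphosphate into triose phosphates. Aldoa (ENSMUSG00000030695, GRCm38 chr7:126795234-126800751) had 5903, 6199 and 6414 CPM, and with 9233 ± 330 TPM (SD, n = 3) it was the highest of the 40 genes by this length. Counted per window found in no other gene, as given with the shared sequences, Pgk1 was higher. Aldoc, the brain isoform, had 45, 48 and 47 reads. Per length, Aldoa was 8391 ± 850 times higher. The symbol Aldoa names another gene next to this one, ENSMUSG00000114515, which averaged 1.57 CPM. Tpi1, which interconverts the triose phosphates, had 1499, 1548 and 1551 CPM and averaged 2156 ± 36.6 TPM.

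Gapdh, which makes NADH in this pathway and is widely used as a loading standard, had 698, 731 and 596 CPM. Culture 3 was the lowest and culture 2 the highest, a ratio of 1.23. At 1075 ± 120 TPM (SD, n = 3) Gapdh lay under Eno1 and Tpi1 by the principal transcript; per window found in no other gene it lay above Tpi1 (6142 and 2331). Its sperm-specific counterpart Gapdhs had 1 read, in culture 3. Of the 50-base stretches of the Gapdh transcript, 82.5% also occurred in transcripts of other genes.

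Pgk1, the X-linked phosphoglycerate kinase that makes ATP, had 3594, 3651 and 3635 CPM and averaged 4493 ± 47.1 TPM (SD, n = 3). Pgk2, its autosomal testis counterpart, had no read, so Pgk1 was at least 34205-fold higher per length. Pgam1, the brain-type and general phosphoglycerate mutase, had 196, 198 and 229 CPM, with culture 3 above the other two. Pgam2, the muscle isoform, had no read, which made Pgam1 at least 988-fold higher. Bpgm, which makes 2,3-bisphosphoglycerate and is best known from red cells, was detected at 15.6, 14.4 and 15.9 CPM. The level of Pgam1 over that of Bpgm was 16.9 ± 1.18 (SD, n = 3).

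Enolase was led by Eno1, the general isoform, with 1670, 1722 and 1823 CPM and 1938 ± 72.5 TPM (SD, n = 3). Eno3, the muscle isoform, was detected at 19.3, 16.7 and 17.3 CPM, and Eno1 was 75.9 ± 7.95 times higher per length. Eno2, the neuronal isoform, had 5, 6 and 3 reads; it lies 40.9 kb from Tpi1 on chromosome 6. Pkm, the muscle and general pyruvate kinase, had 3482, 3553 and 3562 CPM and averaged 3284 ± 35.2 TPM. Its liver and red cell counterpart Pklr had 2, 1 and 1 reads. The table counts genes, so the splice forms of Pkm were not told apart.

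Lactate dehydrogenase came almost wholly from Ldha, the subunit that predominates in muscle. Ldha had 2970, 3021 and 3142 CPM and averaged 3897 ± 84.3 TPM (SD, n = 3). Ldhb, the subunit that predominates in heart, had no read in any culture, so Ldha was at least 23427-fold higher per length. Ldhc, the sperm isoform, had 22, 22 and 29 reads and lies 5.58 kb from Ldha on chromosome 7; the level of Ldha over that of Ldhc was 3363 ± 242 (SD, n = 3). The start regions of Ldha and Ldhb are printed because they belong to the highest and to an unread isoform of the same step. Each 300-base window runs from 250 bases before a RefSeq start of the gene to 50 after it (GRCm38.p6). It is given 5′ to 3′ on the strand of the gene. For Ldha the RefSeq table holds 2 windows, and the one nearest to the start of the principal transcript was used. Capitals mark the letters ACGTG on either strand, the core of sites that HIF and MYC family factors are known to bind. Neither of the printed windows of this pair holds them, and the window of the other Ldha start is not described here. Ldha lies at chr7:46846832-46847131 on the plus strand and Ldhb at chr6:142507908-142508207 on the minus strand.
Ldha: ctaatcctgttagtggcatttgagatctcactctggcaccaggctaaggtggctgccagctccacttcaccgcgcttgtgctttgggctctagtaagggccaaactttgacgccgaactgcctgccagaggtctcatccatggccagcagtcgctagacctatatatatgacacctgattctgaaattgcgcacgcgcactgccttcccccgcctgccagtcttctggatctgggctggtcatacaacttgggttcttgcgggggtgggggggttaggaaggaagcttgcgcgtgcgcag
Ldhb: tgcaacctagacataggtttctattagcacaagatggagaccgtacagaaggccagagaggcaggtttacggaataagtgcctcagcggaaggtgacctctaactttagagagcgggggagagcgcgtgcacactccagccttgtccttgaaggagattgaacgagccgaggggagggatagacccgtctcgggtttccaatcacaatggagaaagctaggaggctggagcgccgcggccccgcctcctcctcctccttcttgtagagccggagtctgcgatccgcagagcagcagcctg
The ratio of observed to expected CpG was 0.540 in the Ldha window used and 0.696 in the Ldhb window. Which Ldha start gave the reads was not tested, so this compares the printed windows and not the isoforms.

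The PDK enzymes phosphorylate pyruvate dehydrogenase and thereby restrain it. Pdk3, an X-linked member, had 462, 491 and 492 CPM and averaged 515 ± 17.2 TPM (SD, n = 3). Pdk1, known as a target of hypoxia signalling, had 315, 315 and 311 CPM. Pdk3 was 3.77 ± 0.151 times higher than Pdk1 per length and held 79.0% of the step. Pdk2, the broadly expressed member, had 1 read, in culture 1. Pdk4, which is induced by fasting in muscle and liver, had no read, so Pdk3 was at least 8123-fold higher. The windows of Pdk3 (chrX:93832101-93832400, minus strand) and Pdk2 (chr11:95041322-95041621, minus strand) are printed as the leading and a nearly unread isoform, in the same format.
Pdk3: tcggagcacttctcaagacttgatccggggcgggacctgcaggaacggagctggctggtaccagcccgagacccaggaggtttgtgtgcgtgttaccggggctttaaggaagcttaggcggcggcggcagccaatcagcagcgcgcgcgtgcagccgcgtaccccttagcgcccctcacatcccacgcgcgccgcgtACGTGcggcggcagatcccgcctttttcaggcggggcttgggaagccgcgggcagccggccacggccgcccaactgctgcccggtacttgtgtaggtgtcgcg
Pdk2: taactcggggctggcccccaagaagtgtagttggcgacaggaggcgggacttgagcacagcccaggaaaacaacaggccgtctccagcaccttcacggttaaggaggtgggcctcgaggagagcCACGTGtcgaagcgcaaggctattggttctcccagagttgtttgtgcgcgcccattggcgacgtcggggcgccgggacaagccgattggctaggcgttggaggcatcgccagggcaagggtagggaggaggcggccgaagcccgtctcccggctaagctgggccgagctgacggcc
Each of the pair holds the letters ACGTG in 1 place, and the observed to expected CpG ratio was 1.01 for Pdk3 and 0.817 for Pdk2.

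Lactate leaves cells through monocarboxylate transporters. Slc16a1, the general transporter MCT1, had 208, 209 and 214 CPM and averaged 107 ± 0.706 TPM (SD, n = 3). Slc16a3, the transporter MCT4 known from strongly glycolytic cells, had 24, 30 and 36 reads and stayed under 1 CPM in every culture. Slc16a1 was 240 ± 29.0 times higher per length. The windows of Slc16a1 (chr3:104638414-104638713, plus strand) and Slc16a3 (chr11:120948817-120949116, plus strand) are printed for the same reason.
Slc16a1: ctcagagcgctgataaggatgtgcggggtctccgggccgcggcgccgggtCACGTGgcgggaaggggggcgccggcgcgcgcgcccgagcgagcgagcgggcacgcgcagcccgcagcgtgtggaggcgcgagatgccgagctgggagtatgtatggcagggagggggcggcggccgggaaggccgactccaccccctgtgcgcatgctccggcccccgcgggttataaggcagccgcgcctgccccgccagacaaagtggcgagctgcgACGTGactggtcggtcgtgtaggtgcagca
Slc16a3: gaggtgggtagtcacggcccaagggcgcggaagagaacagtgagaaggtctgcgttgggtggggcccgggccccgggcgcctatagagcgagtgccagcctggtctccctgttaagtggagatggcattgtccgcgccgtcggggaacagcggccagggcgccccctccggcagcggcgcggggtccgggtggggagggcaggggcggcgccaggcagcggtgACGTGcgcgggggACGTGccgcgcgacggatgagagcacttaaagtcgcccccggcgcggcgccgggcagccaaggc
Each of these windows holds ACGTG in 2 places, and their CpG ratios were 1.06 and 0.933. The 6 windows were picked after levels and window features had been seen.

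Over all members, 38 of 40 matched a window in the RefSeq table; Slc2a3 and Slc2a4 did not. The letters ACGTG, searched on both strands with overlapping matches counted once, were present in 13 of 26 detected genes (50.0%) and in 2 of 12 undetected genes (16.7%). They were present in 19.6% of all 32851 windows of the table, which were not limited to genes detected here. Median GC content was 59.2%, 54.8% and 52.7% in detected members, undetected members and all windows. The sets were not matched by base content, and its part in these shares was not tested. A CpG ratio of at least 0.6, a limit chosen after the data were seen, was reached by 16 of the 26 detected genes (61.5%) and by Eno2, Ldhb, Pdk2 and Slc16a3 among the 12 undetected ones (33.3%). The same holds for 35.8% of all windows. Median ratios were 0.687, 0.430 and 0.384 in detected members, undetected members and all windows. Hk1 and Eno3 were detected with ratios of 0.0507 and 0.128, though the table holds 2 windows for Hk1 and only the one used is described. A match to these letters is a description of the window and not a site. Where the table holds more than 1 start for a gene, the window nearest to the start of the principal transcript was used.

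**Figure D3:**
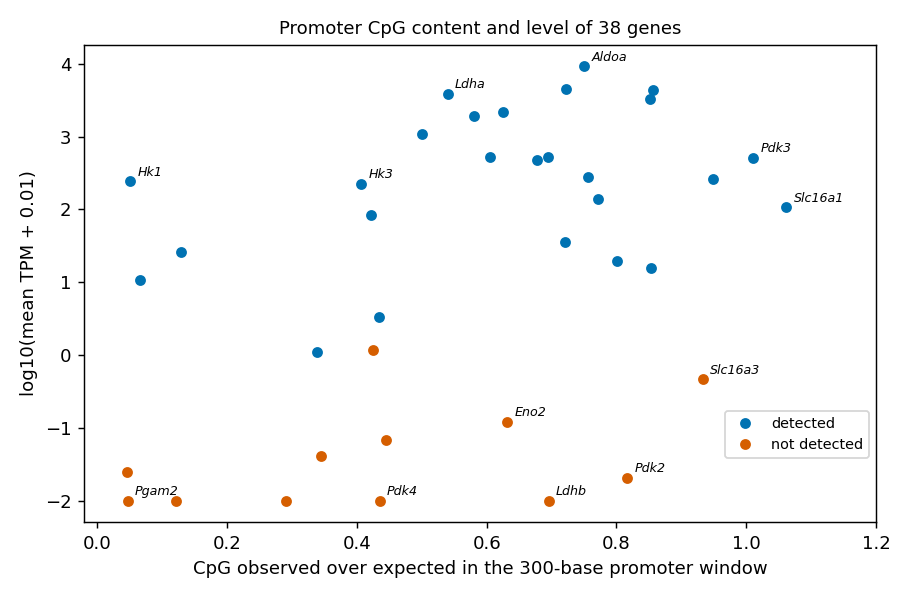
Observed over expected CpG in the 300-base start window (x axis) and level as log10(mean TPM + 0.01) (y axis) of 38 genes, coloured by whether the gene was detected. Pdk3 and Slc16a1 lie at the right among the detected genes, and Slc16a3, Pdk2, Ldhb and Eno2 lie right of 0.6 without being detected.

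Isoforms of a step had no stretch of a read's length in common. The table was made from 50-base reads, so the principal transcript of each gene was divided into all its 50-base windows. These were looked up in both orientations in every annotated transcript, so a match to a transcript of the opposite strand also counted as shared. None of the 41 isoform pairs within a step shared a window, the matching count being 0. Their coding sequences were identical at 59.8% to 79.3% of aligned bases, lowest for Slc16a1 and Slc16a3 and highest for Pgk1 and Pgk2. Ldha and Ldhb were identical at 73.0% and Aldoa and Aldoc at 75.9%.

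Other genes did share windows with members. No window was shared in 21 members, at least 10% were shared in 12, and at least 40% in 4, namely Gapdh (82.5%), Eno1 (72.2%), Pgk1 (68.0%) and Pgam1 (41.5%). For Gapdh, 222 other genes shared windows, 213 of them annotated pseudogenes, and together these genes had 125, 127 and 136 CPM. Eno1b, a retrocopy annotated as protein-coding, shared 1395 windows with Eno1 and had 91.3, 110 and 129 CPM; like Eno1, it was lowest in culture 1 and highest in culture 3. Ldha-ps2 averaged 10.5 CPM and Pgk1-ps1 1.07 CPM. Pfkp shared 699 windows with its neighbour Pitrm1, which averaged 127 CPM. How reads with several matches were counted is not given in the sources used here, so the levels of these members are uncertain. If only windows found in no other gene had given reads, Pgk1 would have averaged 14025, Aldoa 10722, Eno1 6971, Gapdh 6142 ± 687, Gpi1 5820, Pkm 5006, Ldha 4702, Tpi1 2331 and Pgam1 452 on the scale of TPM. The order at the top then changes: Pgk1 lies above Aldoa, Eno1 above Gpi1, Ldha and Pkm, and Gapdh above Tpi1, Ldha and Pkm, while the cultures of Gapdh and Gpi1 overlap. The part of shared sequence in the rank of Gapdh was not tested.

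**Figure D4:**
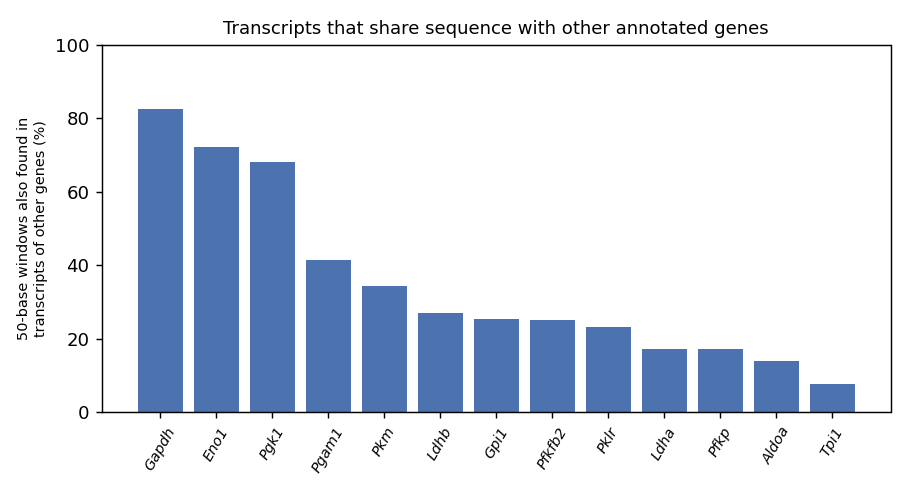
Share of the 50-base windows of the principal transcript that also occur in transcripts of other genes (%), for the 13 members with the highest shares. Gapdh, Eno1, Pgk1 and Pgam1 lie above 40%, while Ldha, Aldoa and Tpi1 lie under 20%.

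Ordered by level per length of the principal transcript, neighbours that did not differ beyond their spread were Pgk1 and Gpi1, the chain of Pfkl, Slc2a1, Pdk3 and Pfkp, and the chain of Hk2, Pgam1, Hk1 and Hk3. All other neighbours in the order had cultures that did not overlap. After Aldoa, Pgk1 and Gpi1 came Ldha, Pkm, Tpi1, Eno1, Gapdh and Slc2a3 at the top, and Eno3, Pfkfb4, Bpgm, Pfkfb1, Pfkfb2 and Aldoc at the bottom of the 27.

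The 3 cultures were then set against counting noise gene by gene, using the recovered reads in a chi-square heterogeneity test against Poisson sampling, with p-values adjusted by the Benjamini-Hochberg method over the 13139 genes that averaged 10 reads or more. Of 29 members tested, 17 (58.6%) differed between cultures at an adjusted p under 0.05, against 32.7% of all genes tested. Without culture 1 the counts were 11 members and 11.1% of all genes tested. Reads set what such a test can see: among genes of at least 100 CPM, 16 of 20 members and 59.9% of all genes were called, and among the 9 tested members under 100 CPM only Pfkfb2 was. The differences were small. The median ratio of the highest to the lowest culture was 1.07 in members of at least 100 CPM and 1.06 in all 2468 such genes. A call together with a highest culture at least 25% above the lowest was met by 10.9% of all genes tested and by 1 member, Pfkfb2 (ratio 1.54, chi-square test, adjusted p = 4.2e-05). Without culture 1, 0 members met it.

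The called genes with the widest spread were in several steps. After Pfkfb2, Gapdh had a ratio of 1.23 (adjusted p = 3.1e-113), Pgam1 of 1.17 (adjusted p = 8.3e-25) and Pfkl of 1.16 (adjusted p = 9.1e-74), by the chi-square test. Without culture 3 the ratio of Pgam1 was 1.01, and its call was lost (chi-square test, adjusted p = 0.669). Gapdh and Pfkl then each had a ratio of 1.05 and stayed called (chi-square test, adjusted p = 7.1e-06 and 6.5e-07). Among genes of at least 100 CPM the ratio of Gapdh lay at percentile 93.7. Pfkp (ratio 1.09, chi-square test, adjusted p = 3.9e-26) was highest in culture 1, whereas Pfkl was highest in culture 3. The 12 tested members that were not called include Slc2a3 (ratio 1.01, adjusted p = 0.377), Pdk1 (ratio 1.01, adjusted p = 0.653) and Pfkm (ratio 1.01, adjusted p = 0.985) in the chi-square test. A p that misses the threshold does not show that their cultures were equal.

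**Figure D5:**
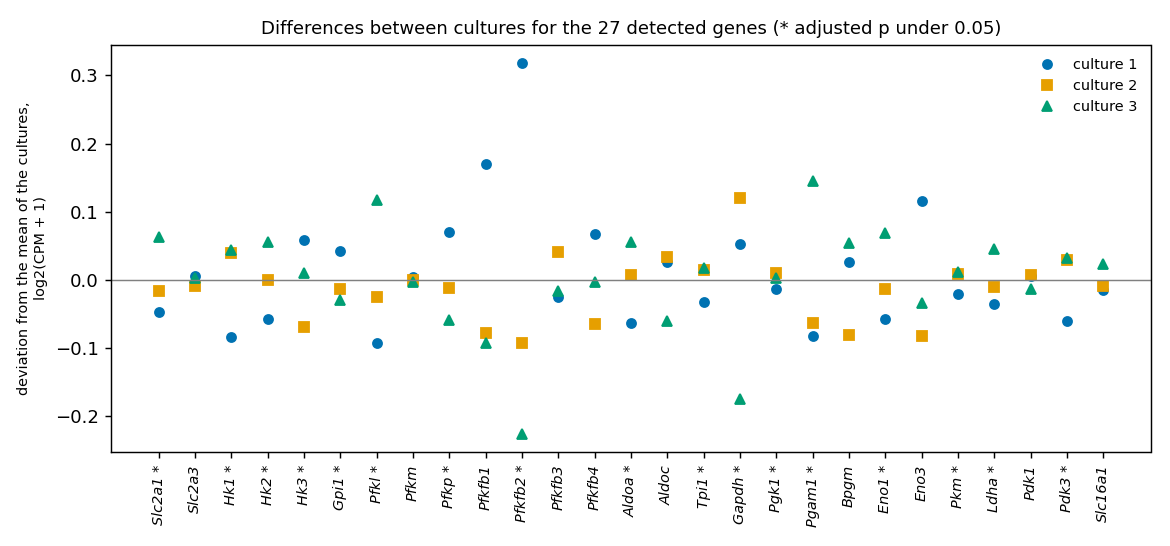
Deviation of each culture from the mean of the 3, in log2(CPM + 1), for the 27 detected genes; an asterisk marks an adjusted p under 0.05. Pfkfb2 shows the widest spread, and Gapdh lies lowest in culture 3 while Pgam1 and Pfkl lie highest there.

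Of the 17 called members, 11 were highest in culture 3, 4 in culture 1 and 2 in culture 2. Of all called genes, 31.0% were highest in culture 3 and 50.5% in culture 1. These were not matched to the members by level: 16 of the called members and 1478 of the 4303 called genes averaged at least 100 CPM. With another scaling, by trimmed mean of M values or by median of ratios, 16 of the 17 kept the culture in which they were highest, and Pgk1 did not. Over all 27 detected members the median deviation was -0.01, -0.01 and 0.01 on the log2 scale in cultures 1, 2 and 3, and over all detected genes it was 0.01, -0.01 and -0.01. With scaling by trimmed mean of M values the medians of the members were -0.03, -0.01 and 0.03, and those of all detected genes in cultures 1 and 3 changed sign, to -0.01 and 0.01. The muscle marker Ckm was also highest in culture 3 and lowest in culture 1, as were Slc2a1, Pfkl and Aldoa. Its part in these differences was not tested.

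Genes around the pathway were taken from 8 lists of 78 genes, of which 52 were detected and 14 had no read. Of 53 tested, 21 differed between cultures, against the background of 32.7%.

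Among 15 other isoforms of the same steps, 5 were detected and 2 of 5 tested were called. Adpgk, a glucokinase that uses ADP, averaged 62.5 CPM, Ldhd, a mitochondrial D-lactate dehydrogenase, 20.3 CPM and the intracellular transporter Slc2a8 18.4 CPM.

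Bsg, the chaperone that brings MCT1 and MCT4 to the surface, averaged 826 ± 20.1 CPM (SD, n = 3), and its relative Emb, another transporter chaperone, averaged 0.0683 CPM. Mpc1 and Mpc2, which together carry pyruvate into mitochondria, had 10.8 and 17.3 CPM. In this list 3 of 4 genes were detected and 1 of 3 tested was called. Of 9 genes of the pyruvate dehydrogenase complex and its phosphatases, 8 were detected and 1 of 8 tested was called. Pdha1, the subunit that PDK enzymes phosphorylate, averaged 514 CPM, Dld 142 CPM and Dlat 78.9 CPM, while the testis subunit gene Pdha2 had no read. Per length, Pdhb (103 TPM) lay above Dlat (44.2 TPM).

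In the pentose phosphate pathway, which branches off at glucose 6-phosphate, 8 of 11 genes were detected and 4 of 8 tested were called. Tkt, transketolase, had 745, 778 and 846 CPM, Taldo1, transaldolase, averaged 431 CPM and Pgd 170 CPM. The transketolase-like genes Tktl1 and Tktl2 had no read. In gluconeogenesis, the reverse route, 3 of 8 genes were detected and 1 of 3 tested was called. The detected genes were Pcx (84.3 CPM), Pck2 (71.9 CPM) and G6pc3 (40.2 CPM), and the liver and kidney genes Pck1 and G6pc had no read.

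Glycogen metabolism had 9 of 11 genes detected and 6 of 10 tested called. Gys1, the general glycogen synthase, averaged 570 CPM and Pgm1 525 CPM, against 0.0613 CPM for the liver synthase Gys2 and 0.369 CPM for the muscle phosphorylase Pygm. Of 10 regulators, 7 were detected and 4 of 7 tested were called. Txnip, which restrains glucose uptake, had 1861, 1659 and 1590 CPM, so it was highest in culture 1. In that culture Slc2a1 was lowest and Slc2a3 highest, though the cultures of Slc2a3 did not differ at the threshold. A link between these orders was not tested. Myc averaged 394 CPM and Hif1a 156 CPM, while Arrdc4, a relative of Txnip, had no read and Mlxipl, which encodes a glucose-responsive factor, averaged 0.0104 CPM. Of 10 genes of the shuttles that reoxidise cytosolic NADH, 9 were detected and 2 of 9 tested were called. By CPM the highest were Mdh2 with 338 CPM, Gpd2 with 138 CPM and Slc25a12 with 135 CPM. Per length, Gpd2 (54.4 TPM) and Slc25a12 (48.1 TPM) lay below Slc25a11 (143 TPM), Mdh1 (134 TPM) and Got2 (111 TPM), among others. Gpd1, a cytosolic partner of Gpd2, had 0.0598 CPM, while Gpd1l of the same list was detected and averaged 60.6 CPM.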

How the data were processed

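Reads were mapped to GRCm38 by HISAT2 and counted by GenSum, per the series' design text; HISAT2 and GRCm38 also stand in the submitters' processing notes. For versions, annotation, strand setting and reads with several matches, nothing is given in the sources used here. From the values themselves, the deposited unit is log2 of reads per 10000000 plus 1, as made by the authors. Undoing the log gave whole reads for 100.0% of entries within 0.01. In the deposited table, the row identifiers fit cultures 1 and 2, and the symbols and coordinates fit culture 3. In 0 of 23001 rows with reads do identifier and symbol name the same gene, so culture 3 was joined through GENCODE M21 coordinates. That joined 55196 genes, including all 40 members.

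The design assumed counts, but the deposited unit is log2, so no count package was used. CPM divides reads by the column sum. TPM uses the length of the principal transcript. Heterogeneity between cultures was tested on recovered reads with a chi-square test against Poisson sampling in scipy 1.17.1, with Benjamini-Hochberg adjustment over the 13139 genes with a mean of at least 10 reads and a threshold of 0.05. The test was also run on simulated reads. Those were drawn by Poisson sampling, with known changes put into some genes and no other spread between libraries. That run cannot show how the test behaves where cultures vary beyond counting. The test compares 3 libraries and no conditions. Logs are log2(CPM + 1). Coding sequences were aligned with Biopython 1.88, in place of the planned protein comparison.

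All 40 members are named, as are the 3 highest and up to 2 of the lowest genes of each list by mean CPM, and member-named copies with at least 1 CPM. A few genes that this rule or the marker lists would name are not reported here. Pitrm1, the second gene called Aldoa, Gpd1l, Pdhb, Slc25a11, Mdh1 and Got2 were named after their values were seen. Members and lists were chosen with earlier results of these data known. The search for shared windows, the limits of 90%, 100 CPM, 10%, 40% and 0.6, and the choice of printed windows were also made with the data in view. The alternatives tried were other scalings, thresholds, lengths, pseudocounts, the rows as deposited and leaving out each culture.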

Additional observations from a re-analysis of the deposited data

How the results depend on the processing

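The number of detected members was 27 and stayed between 26 and 29 under every alternative run. The number whose cultures differed was 17. It was 19 with either other scaling and between 11 and 18 with a culture left out, the lowest without culture 1; the count with a highest culture at least 25% above the lowest was 1, and between 0 and 1 with a culture left out. Without culture 1 the calls of Hk1, Pfkfb2, Tpi1, Pgk1, Pkm and Pdk3 were lost, at adjusted p of 0.915, 0.586, 0.913, 0.572, 0.772 and 0.941. Without culture 3 those of Slc2a1 (0.0903) and Pgam1 (0.669) were lost. Slc2a3 and Slc16a1 were called with trimmed mean of M values scaling (0.00137 and 0.0193) and with median-of-ratios scaling (0.0349 and 0.0476), and Pfkfb1 was called without culture 2 (0.0478). The share of all genes called was 11.1%, 29.5% and 20.2% without culture 1, 2 and 3.

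Shares per length moved with the length used. With the union of exons, the isoform that led in the main setting held 47.5% for Slc2a3 (Slc2a1 higher), 45.2% for Hk2, 56.9% for Pfkl, 99.98% for Aldoa, 96.1% for Pgam1, 96.9% for Eno1, 99.998% for Pkm, 99.95% for Ldha, 82.3% for Pdk3 and 99.7% for Slc16a1. Without length correction the values were 65.2% for Slc2a3, 47.6% for Hk2, 46.6% for Pfkl (Pfkp higher), 62.4% for Pfkfb3, 99.98% for Aldoa, 93.1% for Pgam1, 99.0% for Eno1, 99.98% for Ldha and 60.6% for Pdk3. With the mean length of protein-coding transcripts they were 63.6% for Slc2a3, 33.0% for Hk2 (Hk1 higher), 44.6% for Pfkl (Pfkp higher), 60.1% for Pfkfb3, 99.99% for Aldoa, 88.4% for Pgam1, 99.98% for Ldha and 99.0% for Slc16a1. On the rows as deposited they were 65.7% for Slc2a3, 38.1% for Hk2, 99.89% for Aldoa, 65.8% for Eno1, 99.99% for Pkm, 99.6% for Ldha, 78.3% for Pdk3 and 99.6% for Slc16a1. With windows found in no other gene, an alternative chosen after seeing the data, they were 44.1% for Pfkl (Pfkp higher), 99.99% for Aldoa, 96.7% for Pgam1, 99.6% for Eno1 and 99.98% for Ldha. Leaving out a culture kept Slc2a3 between 60.2% and 61.2%, Hk2 between 36.6% and 37.2%, Pfkl between 46.6% and 49.4%, Pfkfb3 between 51.0% and 53.4% and Pdk3 between 78.7% and 79.4%. Other shares, the share of reads and the median deviations moved by less than their spread. The number of steps led by 90% or more was 8, and 7 with the mean protein-coding length and on the rows as deposited. In the rows as deposited, identifier and symbol named different genes wherever there were reads. A row of that setting therefore put culture 3 beside another gene's reads in the other cultures. For this reason its shares and its number of steps cannot show how the results depend on the processing. For the other settings, the cause was not tested beyond the lengths used. No paired analysis was possible because the series holds 1 group. Depth limits undetected genes: fewer than 3 reads in a library cannot be told from none.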
